A study of Drosophila melanogaster with 12 samples.

Results

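The odorant-binding proteins of *Drosophila* were followed in the whole-fly RNA-seq of *bmm* overexpression. The members were all rows of the count table whose gene symbol begins with Obp and a digit, which gave 51 of 17807 gene symbols by a rule that uses no measured value. Whole adult flies of 4 groups were sequenced with 3 biological replicates of 20 flies each: *da-GAL4>UAS-bmm* males and *da-GAL4/+* males, and *da-GAL4>UAS-bmm* females and *da-GAL4/+* females, here called *bmm* and control flies. *bmm* (*brummer*) is the main lipase of stored fat in flies, and *da-GAL4* is a ubiquitous driver that the control flies carried too, without the *UAS-bmm* insertion. Flies carrying *UAS-bmm* without the driver were not analysed here, so the insertion and the overexpression cannot be told apart. All flies were fed SY10/10 food and had 48 hours to mature and mate before the sexes were separated, and the age at which the RNA was taken is not stated in the sources used here.

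Odorant-binding proteins are small secreted proteins that fill the lymph around the dendrites of smell and taste neurons, where they bind odorants, tastants and pheromones and carry or buffer them on the way to the receptors. The gene family is larger than its name: some members are made in the male reproductive tract and pass to the female with the seminal fluid, and others are made in fat body, glia or gut. Many of the genes lie side by side in clusters that arose by local duplication, and a gene's number gives the cytological band. Of the 51 genes, 29 lie on chromosome arm 2R, 12 on 3R, 6 on X, 2 on 2L and 2 on 3L, and all 51 symbols were found in the BDGP6.54 annotation.

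The libraries held 20068187 to 34799635 counts, and Obp genes took 0.404% to 0.455% of the counts in male libraries and 0.0865% to 0.0980% in female libraries. *bmm* itself stood at 10620 to 12055 CPM (the deposited normalized value, which is the count times 1 factor per library) in *bmm* males and 192 to 474 CPM in control males, and at 4455 to 5122 CPM in *bmm* females and 131 to 147 CPM in control females. Markers of female reproductive tissue (yolk, vitelline membrane and chorion genes) were found in male libraries. The median of 21 such genes was 0.206%, 0.131% and 0.140% of the female level in *bmm* males and 5.14%, 1.22% and 0.638% in control males, so control male replicate 1 stood apart. Markers of male accessory gland summed to 5068 to 5951 CPM in *bmm* males, 5114 to 6558 CPM in control males and to at most 0.539 CPM in any female library. In such bulk samples, fewer cells of a type and less RNA per cell cannot be told apart.

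Levels of different genes were compared as CPM per kilobase of exon. In males, *Obp56g* was the highest at 2236 CPM per kb over 6 libraries (range 1902 to 2726), followed by *Obp99c* at 1164 (1091 to 1294), *Obp51a* at 888 (760 to 1055), *Obp56d* at 670 (469 to 888) and *Obp19d* at 351 (296 to 426). The ranges of *Obp51a* and *Obp56d* overlapped, and those of the other neighbours in this order did not. These 5 genes made up 82.2% of the summed Obp level per kb in males. In females, the order was *Obp99c* at 324 CPM per kb (270 to 365), *Obp99a* at 214 (118 to 273), *Obp56d* at 197 (165 to 232), *Obp19c* at 172 (145 to 201) and *Obp56e* at 104 (92.1 to 118), together 75.4% of the female sum. The ranges of neighbours in the female order overlapped, except for those of *Obp19c* and *Obp56e*, and the order differed by genotype. *Obp56d* (213 CPM per kb) was above *Obp99a* (176) in *bmm* females, and in control females *Obp99a* stood at 252, *Obp19c* at 182.1 and *Obp56d* at 181.2. *Obp99c* and *Obp56d* were among the highest members in both sexes.

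**Figure D1:**
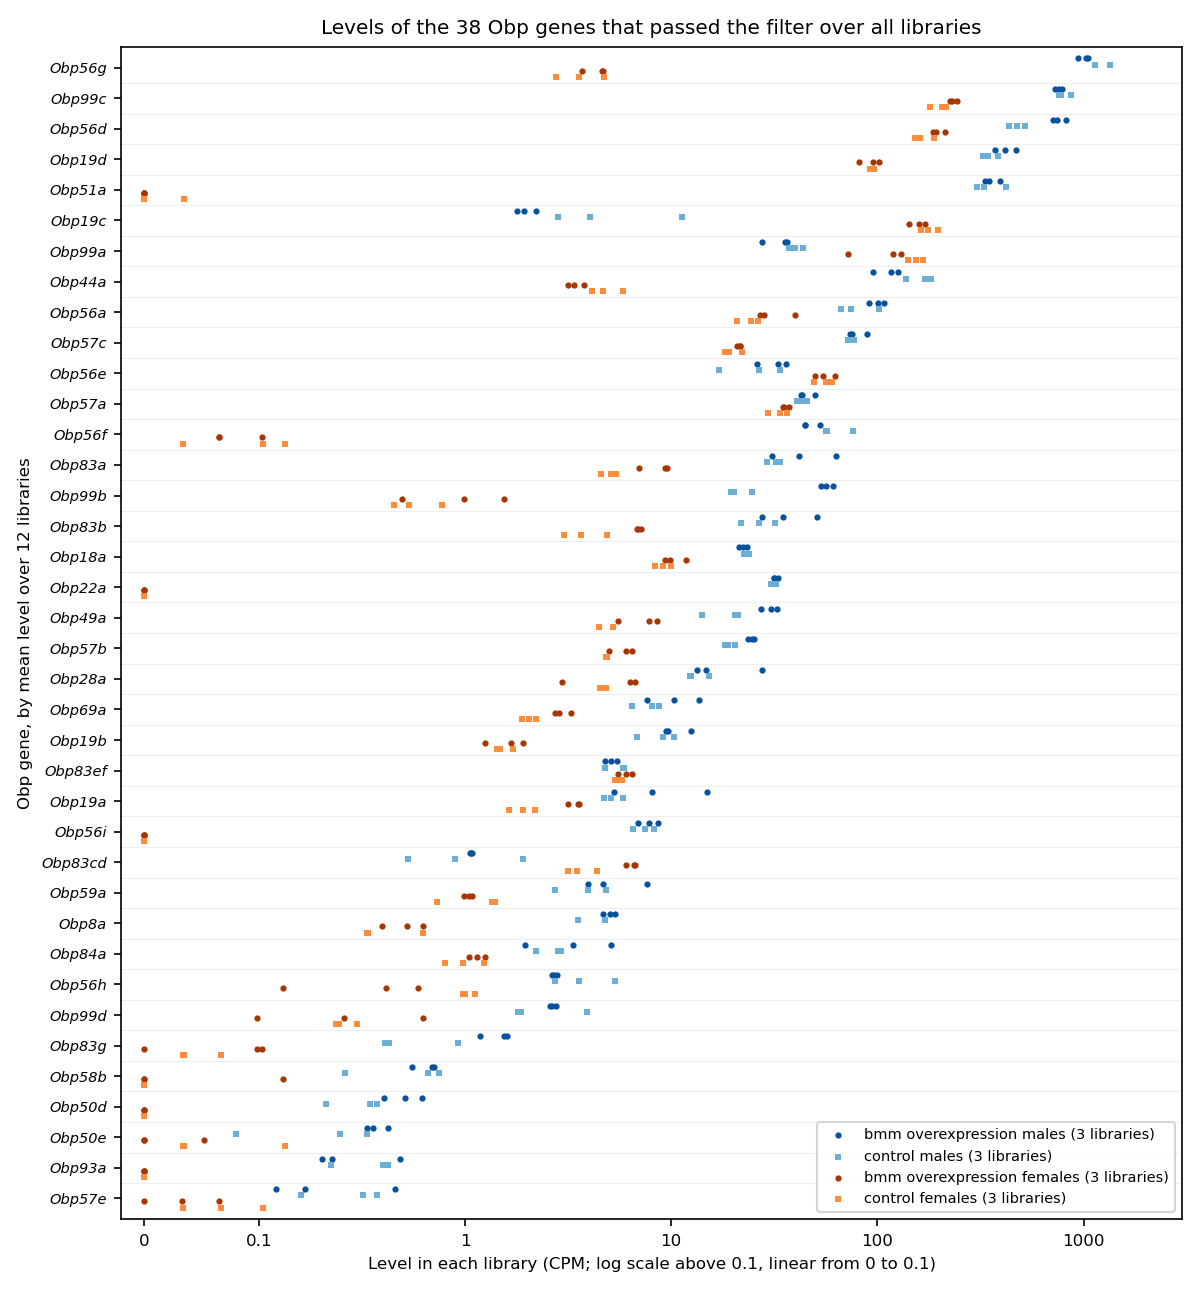
Level (CPM) of each of the 38 Obp genes that passed the filter on low counts over all libraries, on an axis that is logarithmic above 0.1 and linear from 0 to 0.1. Each point is 1 library, with 3 per group. Male libraries lie to the right of female libraries for most genes, and *Obp19c*, *Obp99a*, *Obp56e* and *Obp83cd* show the opposite order.

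The sex comparison asks how far the family is male- or female-biased in whole flies, separately in each genotype. A gene was called at a Benjamini-Hochberg adjusted p under 0.05 over all genes tested and an absolute log2 fold change over 1, by edgeR's quasi-likelihood test over 12 libraries. Of 51 members, 38 passed the filter on low counts. In *bmm* flies, 32 of these 38 were called higher and 3 lower in males, where 42.9% and 23.9% of all 13988 genes tested were called higher and lower. In control flies, 32 were called higher and 4 lower, against 44.9% and 23.7% of all genes. The same 32 genes were called higher and 3 lower in both genotypes. The median log2 difference (males over females) was 2.31 over the Obp genes and 0.43 over all genes in *bmm* flies, and 1.94 and 0.54 in control flies. With genes at 0 in females set to their lower bound the Obp medians were 2.11 and 1.91. A gene that passes the filter only through the male libraries had to differ, so the counts over these 38 genes are a description. The male and female ranges did not overlap for 38 of 38 genes in *bmm* flies, against 91.6% of all genes tested, and for 36 of 38 in control flies, against 92.7%.

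The median of all genes depended on the scaling. It was 0.43, 0.64 and 0.69 in *bmm* flies, and 0.54, 0.69 and 0.81 in control flies, under TMM, RLE and library size alone. Relative to the TMM median, 30 Obp genes were more than 1 above it and 4 more than 1 below it in *bmm* flies, and 27 and 4 in control flies. The share of all genes beyond these limits was not computed, so these counts only describe the members. Of 9 eye markers, 8 were called higher in males in each genotype, with a median log2 difference of 1.95 in *bmm* flies and 2.20 in control flies. Of 5 flight muscle markers, 3 were called higher and 1 lower in each genotype, with medians of 1.49 and 1.57. Perireceptor proteins work around the receptors in the sensillum, and some may be made elsewhere too. Of 17 olfactory co-receptors and other perireceptor proteins, 16 were called higher in males in *bmm* flies and 17 in control flies. The medians were 1.98 and 2.23. The list includes *EbpIII*, at 1553 to 1964 CPM in male libraries, and *Est-6*, at 782 to 1170 CPM. The tissues behind these levels were not tested. Of 60 odorant receptor genes, 18 passed the filter, and 14 were called higher in *bmm* males and 10 in control males. Of 60 gustatory receptor genes, 15 passed, and 11 and 13 were called higher. How far the male bias of a sensory Obp gene reflects the tissues that make up a male and a female fly was not tested.

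Of the 7 seminal fluid members, 6 were called higher in males in both genotypes, and 5 of these, all but *Obp8a*, had the widest male-biased gaps of the family. *Obp56g*, a seminal protein that the mating plug needs, stood at 942, 1023 and 1053 CPM in *bmm* males, 1134, 1141 and 1349.6 CPM in control males, 4.67, 3.68 and 4.59 CPM in *bmm* females and 4.71, 2.75 and 3.57 CPM in control females. The log2 difference between the sexes was 7.80 (SE 0.180) in *bmm* flies and 8.36 (SE 0.184) in control flies. *Obp51a* stood at 391, 332 and 347 CPM in *bmm* males, 328, 303 and 419.9 CPM in control males, 0, 0 and 0 CPM in *bmm* females and 0, 0.0348 and 0 CPM in control females. The control female value rests on 1 count, and the male to female ratio in control flies was 30163 (95% counting interval 5414 to 1191390.0). In *bmm* flies, with no female count, *Obp51a* was at least 3037-fold higher in males, taking 3 counts per library as the floor in females.

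*Obp22a* (2L, 1991381 to 1992160 in BDGP6.54) stood at 31.5, 31.5 and 32.9 CPM in *bmm* males, 32.3, 30.3 and 31.5 CPM in control males, 0, 0 and 0 CPM in *bmm* females and 0, 0 and 0 CPM in control females. It was at least 272-fold higher in males in *bmm* flies and at least 308-fold in control flies, and the 6 male libraries differed little from each other. *Obp56i* stood at 8.61, 6.86 and 7.80 CPM in *bmm* males, 7.45, 6.55 and 8.22 CPM in control males, 0, 0 and 0 CPM in *bmm* females and 0, 0 and 0 CPM in control females, at least 66.0-fold and at least 72.7-fold higher in males. *Obp56f* stood at 52.9, 44.4 and 44.4 CPM in *bmm* males, 56.5, 56.8 and 75.9 CPM in control males, 0.104, 0.0656 and 0.0656 CPM in *bmm* females and 0.134, 0.104 and 0.0337 CPM in control females, with log2 differences of 9.16 (SE 0.244) and 9.38 (SE 0.228) in *bmm* and control flies. *Obp8a* (X, 9214876 to 9215699) was less abundant in males and not absent in females, at 5.05, 4.66 and 5.33 CPM in *bmm* males, 4.76, 3.54 and 4.75 CPM in control males, 0.622, 0.525 and 0.394 CPM in *bmm* females and 0.334, 0.627 and 0.337 CPM in control females. Its log2 difference was 3.24 (SE 0.239) in *bmm* flies and 3.33 (SE 0.242) in control flies.

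The remaining seminal list member, *Obp56e*, went the other way although it lies 462 bp from *Obp56f* on the same strand. It stood at 36.0, 33.0 and 26.1 CPM in *bmm* males, 33.8, 17.1 and 26.7 CPM in control males, 49.7, 54.5 and 62.6 CPM in *bmm* females and 59.99, 56.1 and 49.0 CPM in control females. The log2 difference was −0.88 (SE 0.204, adjusted p = 0.00118) in *bmm* flies, under the limit on the fold change, and −1.08 (SE 0.205, adjusted p = 2.61e-04) in control flies. The call in control flies was lost without control female replicate 1 (−0.97) and without control male replicate 2 (−0.82), and under RLE scaling (−0.93), DESeq2 (−0.93) and library size alone (−0.82).

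The female-biased members were 3 genes in both genotypes. *Obp19c* (X, 20417921 to 20418964) stood at 2.22, 1.93 and 1.79 CPM in *bmm* males, 11.3, 4.06 and 2.84 CPM in control males, 171, 142 and 159.6 CPM in *bmm* females and 163, 175 and 197 CPM in control females, with log2 differences of −6.39 (SE 0.428) in *bmm* flies and −4.82 (SE 0.379) in control flies. *Obp99a* (3R, 29671657 to 29672334) stood at 36.5, 27.6 and 35.8 CPM in *bmm* males, 40.0, 43.5 and 37.1 CPM in control males, 119, 130.5 and 71.7 CPM in *bmm* females and 167, 153 and 140.2 CPM in control females, with log2 differences of −1.75 (SE 0.187) and −1.93 (SE 0.187). *Obp83cd* (3R, 6108134 to 6109733) stood at 1.08, 1.06 and 1.07 CPM in *bmm* males, 0.532, 0.894 and 1.91 CPM in control males, 6.69, 6.04 and 6.63 CPM in *bmm* females and 3.14, 4.35 and 3.504 CPM in control females, with log2 differences of −2.66 (SE 0.300) and −1.76 (SE 0.308). No male library reached the lowest female library for any of these 3 genes.

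Each female-biased member had male-biased neighbours in its cluster. On X, *Obp19a*, *Obp19b*, *Obp19c* and *Obp19d* follow each other with gaps of 211, 108 and 648 bp, and *Obp19c* alone lies on the minus strand. *Obp19b* (20416733 to 20417812) stood at 12.4, 9.61 and 9.43 CPM in *bmm* males, 6.86, 10.4 and 9.11 CPM in control males, 1.24, 1.67 and 1.90 CPM in *bmm* females and 1.44, 1.71 and 1.48 CPM in control females, with log2 differences of 2.61 (SE 0.192) in *bmm* flies and 2.50 (SE 0.192) in control flies. *Obp19a* and *Obp19d* were male-biased too and are given with the antennal members. On 3R, *Obp83cd* and *Obp83ef* overlap by 92 bp on opposite strands. Reads in that stretch cannot be assigned to 1 of the 2 genes where counting does not use the strand, a setting not given in the sources used here. *Obp83ef* was under the fold limit, with log2 differences of −0.31 (SE 0.118, adjusted p = 0.0265) in *bmm* flies and −0.00 (SE 0.117, adjusted p = 0.970) in control flies. *Obp83g*, 636 bp further on, was male-biased at 1.55, 1.18 and 1.59 CPM in *bmm* males, 0.426, 0.410 and 0.922 CPM in control males, 0.104, 0.0985 and 0 CPM in *bmm* females and 0.0668, 0.0348 and 0.0337 CPM in control females, with log2 differences of 4.37 (SE 0.528) and 3.56 (SE 0.623).

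In the *Obp99* cluster on 3R, *Obp99a* was female-biased and the other 3 genes were male-biased. *Obp99b*, known as a gene of the male fat body around the brain, stood at 53.3, 56.0 and 60.8 CPM in *bmm* males, 19.5, 20.1 and 24.6 CPM in control males, 0.985, 0.492 and 1.54 CPM in *bmm* females and 0.535, 0.453 and 0.775 CPM in control females, with log2 differences of 5.74 (SE 0.232) in *bmm* flies and 5.17 (SE 0.252) in control flies. *Obp99c* (29685736 to 29689311) was abundant in both sexes, at 730.1, 786 and 759 CPM in *bmm* males, 758, 774 and 866 CPM in control males, 225, 244 and 231 CPM in *bmm* females and 216, 180.4 and 205 CPM in control females, with log2 differences of 1.63 (SE 0.0645) and 2.00 (SE 0.0652). *Obp99d*, 1249 bp from *Obp99b*, stood at 2.59, 2.75 and 2.63 CPM in *bmm* males, 1.81, 1.86 and 3.90 CPM in control males, 0.259, 0.0985 and 0.624 CPM in *bmm* females and 0.301, 0.244 and 0.236 CPM in control females, with log2 differences of 2.90 (SE 0.448) and 3.24 (SE 0.460).

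**Figure D2:**
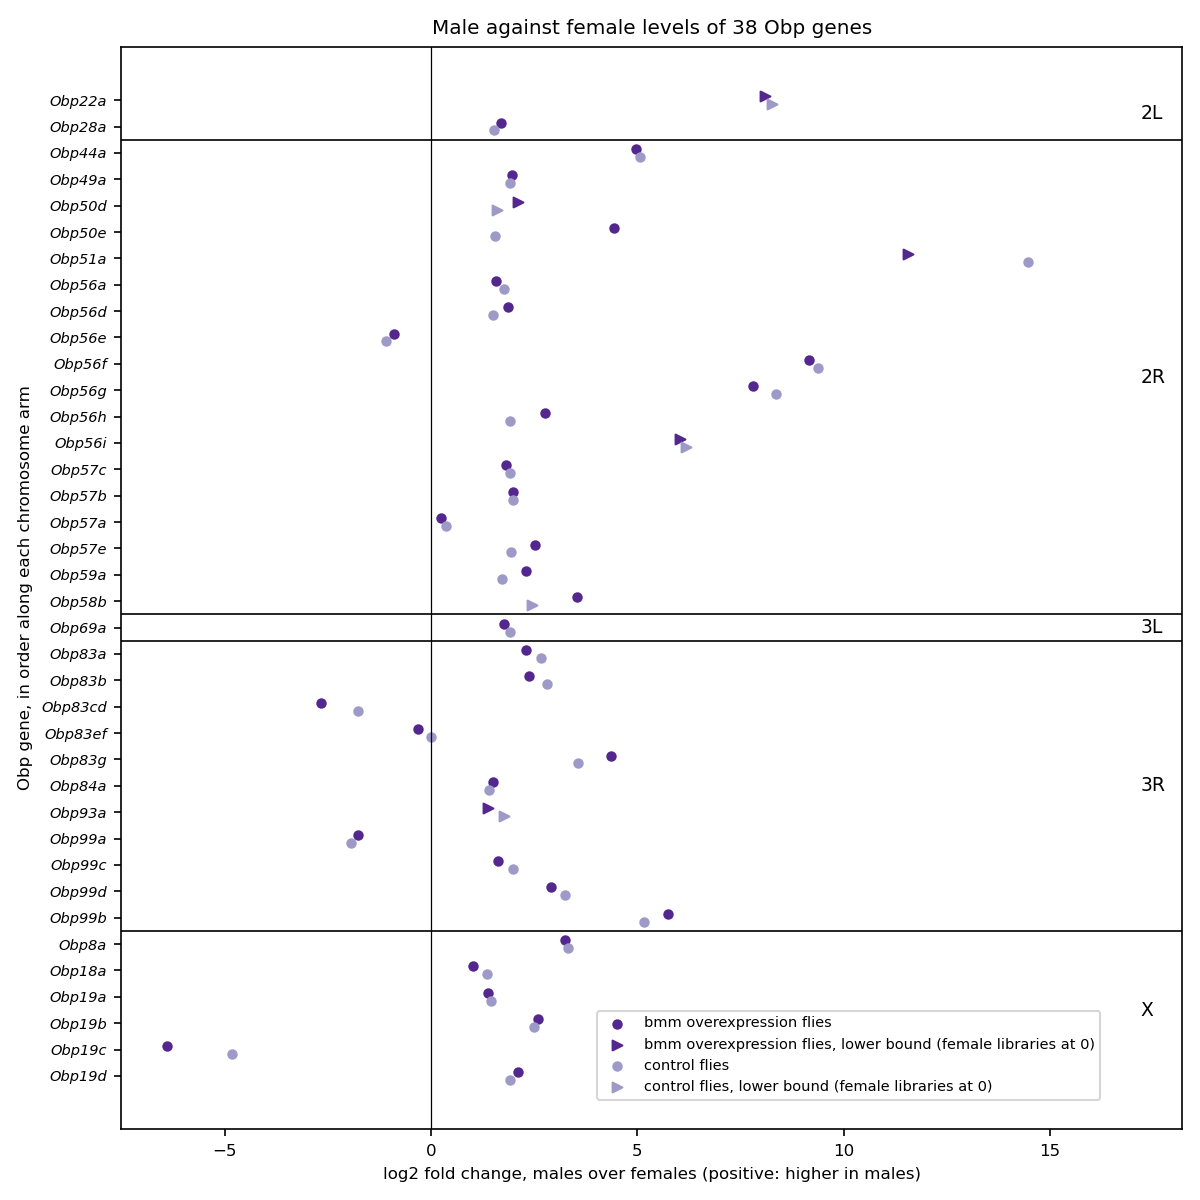
Log2 fold change of males over females for 38 Obp genes, in order along each chromosome arm, in *bmm* flies (dark) and control flies (light). Circles are edgeR estimates (that of *Obp51a* in control flies rests on 1 female count) and triangles are lower bounds for genes with no counts in the females. *Obp19c*, *Obp83cd* and *Obp99a* were called lower in males in both genotypes, and *Obp56e* in control flies only. Each stands beside a male-biased gene in this order, and *Obp83cd* also beside *Obp83ef*, which was not called.

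All 10 antennal members (9 Obp genes and *lush*, the odorant-binding protein of the pheromone 11-cis-vaccenyl acetate, whose symbol is outside the family's naming) were called higher in males in both genotypes. *Obp83a* (3R, 5972155 to 5975245) and *Obp83b* (5976177 to 5976817), neighbours made by support cells of the trichoid sensilla, are among the best known. *Obp83a* stood at 63.1, 41.8 and 30.98 CPM in *bmm* males, 32.3, 29.3 and 33.9 CPM in control males, 6.95, 9.58 and 9.35 CPM in *bmm* females and 5.08, 5.40 and 4.55 CPM in control females, with log2 differences of 2.31 (SE 0.218) in *bmm* flies and 2.67 (SE 0.229) in control flies. *Obp83b* stood at 50.8, 34.7 and 27.7 CPM in *bmm* males, 32.0, 21.7 and 26.7 CPM in control males, 6.90, 6.79 and 7.12 CPM in *bmm* females and 4.88, 3.66 and 3.03 CPM in control females, with 2.37 (SE 0.235) and 2.80 (SE 0.248). For both genes every male library stood above every female library.

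*Obp69a* (3L, 12396171 to 12396957), which takes part in social responses to 11-cis-vaccenyl acetate, stood at 13.7, 10.4 and 7.61 CPM in *bmm* males, 8.11, 6.44 and 8.72 CPM in control males, 2.85, 2.72 and 3.25 CPM in *bmm* females and 2.21, 2.05 and 1.89 CPM in control females, with log2 differences of 1.77 (SE 0.208) in *bmm* flies and 1.92 (SE 0.216) in control flies. *Obp28a* (2L, 7496791 to 7497365) stood at 27.6, 14.8 and 13.4 CPM in *bmm* males, 12.5, 12.4 and 15.3 CPM in control males, 2.96, 6.66 and 6.30 CPM in *bmm* females and 4.71, 4.49 and 4.82 CPM in control females, with 1.71 (SE 0.287) and 1.52 (SE 0.291). *Obp84a* (3R, 7250725 to 7251957) stood at 5.08, 3.33 and 1.95 CPM in *bmm* males, 2.82, 2.20 and 2.91 CPM in control males, 1.14, 1.05 and 1.25 CPM in *bmm* females and 1.24, 0.801 and 0.977 CPM in control females, with 1.52 (SE 0.318) and 1.40 (SE 0.324). The spread among *bmm* males was wide for these 3 genes, with replicate 1 the highest each time.

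*Obp19a* (X, 20415744 to 20416521) stood at 14.9, 8.07 and 5.27 CPM in *bmm* males, 5.85, 4.73 and 5.10 CPM in control males, 3.16, 3.51 and 3.58 CPM in *bmm* females and 1.90, 1.64 and 2.19 CPM in control females, with log2 differences of 1.39 (SE 0.307) in *bmm* flies and 1.46 (SE 0.333) in control flies. Without *bmm* male replicate 1 the difference in *bmm* flies was 0.88 and no longer past the fold limit. *Obp19d* (X, 20419613 to 20420979) stood at 469, 416 and 373 CPM in *bmm* males, 326, 345 and 386 CPM in control males, 81.4, 102 and 95.4 CPM in *bmm* females and 92.5, 96.7 and 92.9 CPM in control females, with 2.10 (SE 0.0889) and 1.91 (SE 0.0883). *Obp56d* stood at 714, 819 and 747 CPM in *bmm* males, 475, 432 and 519 CPM in control males, 213, 185 and 192 CPM in *bmm* females and 189, 160.1 and 152 CPM in control females, with 1.87 (SE 0.09996) and 1.51 (SE 0.0989). These last 2 genes were the most abundant of the antennal list, and their libraries lay closer together.

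*Obp59a*, which humidity sensing needs, stood at 7.67, 4.66 and 3.93 CPM in *bmm* males, 4.81, 2.72 and 3.97 CPM in control males, 0.985, 1.08 and 1.05 CPM in *bmm* females and 1.40, 0.731 and 1.35 CPM in control females, with log2 differences of 2.30 (SE 0.329) in *bmm* flies and 1.74 (SE 0.323) in control flies. *lush* stood at 13.5, 10.1 and 7.90 CPM in *bmm* males, 8.11, 7.41 and 9.78 CPM in control males, 1.82, 2.10 and 1.64 CPM in *bmm* females and 1.40, 1.18 and 1.18 CPM in control females, with 2.43 (SE 0.204) and 2.74 (SE 0.214). Every one of the 10 genes was thus more abundant in male libraries, with the smallest difference in *bmm* flies and in control flies at *Obp19a* and *Obp84a*.

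Among the members with a role in taste, *Obp49a*, which carries bitter compounds that suppress the response to sugar, stood at 32.6, 30.4 and 27.2 CPM in *bmm* males, 21.2, 20.3 and 14.2 CPM in control males, 7.83, 5.51 and 8.57 CPM in *bmm* females and 5.25, 5.22 and 4.48 CPM in control females, with log2 differences of 1.97 (SE 0.190) in *bmm* flies and 1.91 (SE 0.197) in control flies. In the *Obp57* cluster on 2R, *Obp57c*, *Obp57b* and *Obp57a* follow each other with gaps of 48 and 13 bp, yet differed in sex bias. *Obp57c* stood at 73.6, 89.3 and 74.9 CPM in *bmm* males, 73.9, 72.0 and 76.7 CPM in control males, 21.6, 20.9 and 21.5 CPM in *bmm* females and 22.2, 18.3 and 19.1 CPM in control females, with 1.82 (SE 0.0873) and 1.91 (SE 0.0873). *Obp57b* stood at 24.6, 25.1 and 23.4 CPM in *bmm* males, 18.8, 18.21 and 20.3 CPM in control males, 6.07, 6.43 and 4.99 CPM in *bmm* females and 4.88, 4.84 and 4.82 CPM in control females, with 2.00 (SE 0.0892) and 1.98 (SE 0.0901). *Obp57a* differed by 0.25 (SE 0.0853) and 0.37 (SE 0.0853) only, under the fold limit and below the median of all genes. *Obp57e*, which in *Drosophila sechellia* and *Drosophila melanogaster* shapes the taste of host-plant acids, was close to the detection floor at 0.168, 0.121 and 0.455 CPM in *bmm* males, 0.160, 0.372 and 0.319 CPM in control males, 0, 0.0656 and 0.0328 CPM in *bmm* females and 0.0668, 0.104 and 0.0337 CPM in control females. The call of *Obp57e* was lost without control female replicate 3 (adjusted p = 0.0553) in control flies and without *bmm* male replicate 3 (adjusted p = 0.0508) in *bmm* flies.

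Of the *Obp56* cluster, 7 of 9 genes passed the filter, and 6 were called higher in males in both genotypes. *Obp56a* stood at 90.8, 108 and 100.3 CPM in *bmm* males, 74.5, 66.8 and 102 CPM in control males, 28.1, 39.9 and 27.0 CPM in *bmm* females and 26.4, 20.9 and 24.4 CPM in control females, with log2 differences of 1.58 (SE 0.158) in *bmm* flies and 1.76 (SE 0.159) in control flies. *Obp56h*, whose loss alters male courtship and cuticular hydrocarbons, stood at 2.79, 2.63 and 2.70 CPM in *bmm* males, 3.56, 5.32 and 2.73 CPM in control males, 0.415, 0.131 and 0.591 CPM in *bmm* females and 1.00, 0.975 and 1.11 CPM in control females, with 2.77 (SE 0.381) and 1.91 (SE 0.309). *Obp44a*, abundant in glia of the larval brain, had one of the wider gaps outside the seminal list, at 126, 95.7 and 116 CPM in *bmm* males, 137, 182 and 170.0 CPM in control males, 3.37, 3.77 and 3.15 CPM in *bmm* females and 5.85, 4.14 and 4.68 CPM in control females, with 4.96 (SE 0.159) and 5.06 (SE 0.154). *Obp18a* (X, 19135081 to 19135868) had one of the narrower gaps, at 22.3, 21.3 and 23.3 CPM in *bmm* males, 22.6, 23.8 and 23.7 CPM in control males, 9.33, 9.91 and 11.8 CPM in *bmm* females and 9.16, 9.99 and 8.32 CPM in control females, with 1.03 (SE 0.0937) and 1.35 (SE 0.0939).

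The last group called higher in males lay near the floor of 3 counts, which stood for 0.0798 to 0.156 CPM in these libraries. They belong to the Plus-C subfamily, whose proteins carry extra cysteines, and the folds given here are bounded by the female counts. *Obp58b* stood at 0.706, 0.695 and 0.553 CPM in *bmm* males, 0.665, 0.261 and 0.744 CPM in control males, 0, 0.131 and 0 CPM in *bmm* females and 0, 0 and 0 CPM in control females, with a log2 difference of 3.54 (SE 0.735) in *bmm* flies, and was at least 5.46-fold higher in control males than in control females. *Obp93a* (3R, 21128950 to 21129717) stood at 0.202, 0.484 and 0.228 CPM in *bmm* males, 0.399, 0.223 and 0.425 CPM in control males, 0, 0 and 0 CPM in *bmm* females and 0, 0 and 0 CPM in control females, at least 2.59-fold and at least 3.43-fold higher in males in *bmm* and control flies. *Obp50d* stood at 0.404, 0.514 and 0.618 CPM in *bmm* males, 0.346, 0.372 and 0.213 CPM in control males, 0, 0 and 0 CPM in *bmm* females and 0, 0 and 0 CPM in control females, at least 4.36-fold and at least 3.04-fold higher. *Obp50e* stood at 0.336, 0.423 and 0.358 CPM in *bmm* males, 0.0798, 0.335 and 0.248 CPM in control males, 0.0519, 0 and 0 CPM in *bmm* females and 0.134, 0.0348 and 0.0337 CPM in control females, with a ratio of 21.5 (95% counting interval 3.87 to 851) in *bmm* flies on 1 female count. In control flies the *Obp50e* ranges of the sexes overlapped, and its call (adjusted p = 0.0462) was lost without any of 4 of the 6 control libraries and with the replicate block (adjusted p = 0.0687).

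The response to *bmm* overexpression was tested within each sex by edgeR's exact test. In males, 37 members were tested, of which 2 were called higher and 1 lower, against 0.249% and 1.25% of all 13632 genes tested. By adjusted p alone, without the fold limit, 5 members were higher and 2 lower, against 1.92% and 2.38% of all genes. The *bmm* and control ranges did not overlap for 12 of the 37, against 22.8% of all genes tested. The median log2 fold change was 0.19 over the members and −0.01 over all genes.

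*Obp99b* had the smallest adjusted p of the members. It stood at 53.3, 56.0 and 60.8 CPM in *bmm* males, against 19.5, 20.1 and 24.6 CPM in control males, a log2 fold change of 1.40 (SE 0.0965, adjusted p = 6.19e-28). Every *bmm* male library was above every control male library by a wide margin. The call was kept by every test, scaling and left-out library tried, with log2 fold changes between 1.34 and 1.503 when 1 library was left out. In females it stood at 0.985, 0.492 and 1.54 CPM in *bmm* females, against 0.535, 0.453 and 0.775 CPM in control females, with overlapping ranges and a log2 fold change of 0.81 (SE 0.433, adjusted p = 0.224). The difference between the sexes in this response was 0.56 (SE 0.420, adjusted p = 0.607) by the quasi-likelihood test, so a difference between the sexes was not shown. Its neighbour *Obp99d*, on the opposite strand, had a log2 fold change of 0.07 (SE 0.297, adjusted p = 0.995) in males.

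*Obp83g* stood at 1.55, 1.18 and 1.59 CPM in *bmm* males, against 0.426, 0.410 and 0.922 CPM in control males, a log2 fold change of 1.30 (SE 0.338, adjusted p = 0.0112). The ranges did not overlap, but the levels were low and the call was lost under the quasi-likelihood test (adjusted p = 0.101), DESeq2 (adjusted p = 0.0599) and without either of *bmm* male replicates 1 and 3 or control male replicates 1 and 2 (adjusted p of 0.0726 to 0.126).

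*Obp19c* was lower, at 2.22, 1.93 and 1.79 CPM in *bmm* males, against 11.3, 4.06 and 2.84 CPM in control males, a log2 fold change of −1.63 (SE 0.488, adjusted p = 0.0294). The ranges did not overlap, and control male replicate 1 was the highest. As a percentage of the mean female level these values were 1.32%, 1.15% and 1.07% in *bmm* males and 6.72%, 2.42% and 1.69% in control males. The 21 female reproductive markers followed the same order among the control male libraries, at 5.14%, 1.22% and 0.638%, and all 21 were called lower in *bmm* males. The part of the female markers in the *Obp19c* value was not tested. Without control male replicate 1 the log2 fold change was −0.80 (adjusted p = 0.0310) and the call was lost. It was lost too when each *bmm* male library in turn was left out (adjusted p of 0.147 to 0.230). It was also lost under the quasi-likelihood test (adjusted p = 0.138) and DESeq2 (adjusted p = 0.102). Of the other female-biased members, *Obp83cd* was lowest in control male replicate 1 among control males, and *Obp99a* lay between the other 2. Control males stood at 0.304 and 0.262 of the control female mean for *Obp83cd* and *Obp99a*. Whether the male values of these 2 genes hold a share like that of the markers was not tested.

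**Figure D3:**
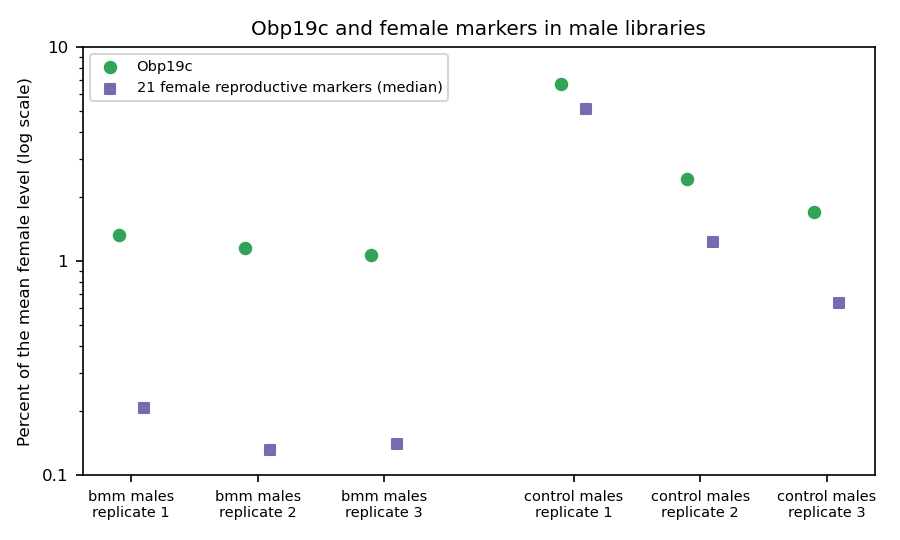
Level of *Obp19c* (circles) and median level of 21 female reproductive markers (squares) in each male library, as a percentage of the mean over 6 female libraries, on a log axis. Control male replicate 1 is highest for both, at 6.72% and 5.14%, and the *bmm* male libraries are lowest for both.

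By adjusted p alone, *Obp56d*, *Obp49a* and *Obp57b* were also higher in *bmm* males and *Obp44a* lower. *Obp56d* stood at 714, 819 and 747 CPM in *bmm* males, against 475, 432 and 519 CPM in control males, a log2 fold change of 0.66 (SE 0.0768, adjusted p = 4.73e-07). *Obp49a* stood at 32.6, 30.4 and 27.2 CPM in *bmm* males, against 21.2, 20.3 and 14.2 CPM in control males, a log2 fold change of 0.68 (SE 0.152, adjusted p = 0.00328). The ranges of both genes were separate. *Obp56d* passed the quasi-likelihood test as well (adjusted p = 0.00772), and *Obp49a* (0.0683), *Obp57b* (0.0576) and *Obp44a* (0.0739) did not. *Obp57b* had a log2 fold change of 0.34 (SE 0.0697, adjusted p = 0.0365) and *Obp44a* one of −0.54 (SE 0.126, adjusted p = 0.00903). The counts of 5 higher and 2 lower were 2 and 0 under the quasi-likelihood test. Without *bmm* male replicate 1, 2 were higher, and without *bmm* male replicate 2 or 3, 0 were lower. By the exact test the seminal fluid members did not pass the adjusted p in either direction: *Obp56g* had a log2 fold change of −0.28 (SE 0.0743, adjusted p = 0.152), *Obp56f* one of −0.43 (SE 0.125, adjusted p = 0.0587) and *Obp22a* one of 0.02 (SE 0.0604, adjusted p = 0.999). DESeq2 passed *Obp56g* (adjusted p = 0.0132) and *Obp56f* (adjusted p = 0.0113) as lower, both under the fold limit.

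In females, 27 members were tested, of which 0 were called higher and 1 lower, against 1.22% and 0.191% of all 10488 genes tested. By edgeR's exact test, 9 members were higher at an unadjusted p under 0.05, a cut whose share of all genes was not computed. DESeq2 called 0 higher as well. By adjusted p alone, 9 were higher and 2 lower, or 33.3% and 7.41% of those tested, against 9.8% and 4.41% of all genes. The ranges did not overlap for 12 of the 27, against 35.1% of all genes tested. The median log2 fold change was 0.22 over the members and −0.01 over all genes. Some markers of other tissues moved too. The median was 0.20 over 9 eye markers, of which 9 were positive and 3 higher by adjusted p alone. It was 0.48 over 5 flight muscle markers, of which 2 were higher by adjusted p alone. Their summed level was 285, 268 and 274 CPM in *bmm* females and 289, 252 and 271 CPM in control females. The median was 0.10 over 5 fat body markers and −0.08 over 21 female reproductive markers. Neither list had a gene higher by adjusted p alone, and 2 female reproductive markers were lower. The part of these tissues in the female Obp values was not tested.

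The 1 gene called was *Obp56h*, at 0.415, 0.131 and 0.591 CPM in *bmm* females, against 1.00, 0.975 and 1.11 CPM in control females, a log2 fold change of −1.42 (SE 0.419, adjusted p = 0.00524). Every *bmm* female library was below every control female library, and *bmm* female replicate 2 was the lowest. Without that library the log2 fold change was −0.93 (adjusted p = 0.0760), and the quasi-likelihood test gave an adjusted p of 0.0545. In males *Obp56h* had a log2 fold change of −0.52 (SE 0.241, adjusted p = 0.410).

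The members higher by adjusted p alone in females included 5 of the 10 antennal genes. *Obp83b* stood at 6.90, 6.79 and 7.12 CPM in *bmm* females, against 4.88, 3.66 and 3.03 CPM in control females, a log2 fold change of 0.87 (SE 0.169, adjusted p = 5.85e-05). *Obp83a* stood at 6.95, 9.58 and 9.35 CPM in *bmm* females, against 5.08, 5.40 and 4.55 CPM in control females, a log2 fold change of 0.82 (SE 0.136, adjusted p = 5.93e-06). *Obp19a* stood at 3.16, 3.51 and 3.58 CPM in *bmm* females, against 1.90, 1.64 and 2.19 CPM in control females, a log2 fold change of 0.87 (SE 0.171, adjusted p = 1.31e-04). In these 3 genes every *bmm* female library was above every control female library, and the quasi-likelihood test also gave adjusted p-values under the threshold (0.0125, 0.00693 and 0.0140). *Obp69a* had a log2 fold change of 0.55 (SE 0.171, adjusted p = 0.0347) and *Obp56d* one of 0.27 (SE 0.0885, adjusted p = 0.0445). *Obp69a* missed the threshold with the replicate block (adjusted p = 0.0644), the quasi-likelihood test (adjusted p = 0.0639) and DESeq2 (adjusted p = 0.117), and *Obp56d* missed it under the quasi-likelihood test (adjusted p = 0.0789). The other 5 antennal genes did not pass. *lush* had a log2 fold change of 0.58 (SE 0.199, adjusted p = 0.0632) with separate ranges, and *Obp28a*, *Obp84a*, *Obp19d* and *Obp59a* lay between −0.13 and 0.22 with overlapping ranges.

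Outside the antennal list, *Obp83cd* stood at 6.69, 6.04 and 6.63 CPM in *bmm* females, against 3.14, 4.35 and 3.504 CPM in control females, a log2 fold change of 0.84 (SE 0.156, adjusted p = 3.91e-05), and also passed the quasi-likelihood test (adjusted p = 0.0104). *Obp83cd* was the only female-biased gene among the 9. *Obp49a* had a log2 fold change of 0.58 (SE 0.183, adjusted p = 0.0325) and *Obp56a* one of 0.43 (SE 0.131, adjusted p = 0.0231). That of *Obp99c* was 0.25 (SE 0.0580, adjusted p = 0.00556). *Obp49a* and *Obp56a* passed under DESeq2 and the replicate block but not the quasi-likelihood test (adjusted p = 0.0682 and 0.0593). *Obp49a* also missed the threshold without *bmm* female replicate 1 or 3 or any 1 control female library (adjusted p of 0.06745 to 0.17). *Obp56a* missed it without *bmm* female replicate 2 or control female replicate 2 or 3. *Obp99c* passed the quasi-likelihood test but not the fit without control female replicate 2. *Obp99a* was lower, at 119, 130.5 and 71.7 CPM in *bmm* females, against 167, 153 and 140.2 CPM in control females, a log2 fold change of −0.49 (SE 0.173, adjusted p = 0.0436), and its ranges did not overlap. *Obp99a* missed the threshold under the quasi-likelihood test (adjusted p = 0.0895), DESeq2 (adjusted p = 0.166) and without any 1 control female library (adjusted p of 0.0540 to 0.204). It passed with the replicate block (adjusted p = 0.00871) and without any 1 *bmm* female library (adjusted p of 0.00715 to 0.0389). Its log2 fold change was −0.27 without *bmm* female replicate 3. The count of 9 was 5 under the quasi-likelihood test, 8 under DESeq2, 4 without control female replicate 2 and 5 without control female replicate 3.

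Genes that work beside the odorant-binding proteins were set beside these values. Of the perireceptor list, 3 of 14 tested in females were higher by adjusted p alone, namely *Snmp1*, a membrane protein of pheromone-sensing neurons, and the esterases *Est-6* and *Jhedup*, and 1 of 16 in males, *Snmp1*. The median log2 fold change of the odorant receptors was 0.16 over 3 tested in females and 0.14 over 15 tested in males. The summed level of 12 antenna and olfactory neuron markers, which include *lush* and *Snmp1*, was 31.8, 29.5 and 34.7 CPM in *bmm* females and 24.2, 23.5 and 26.4 CPM in control females, with 4 to 6 of the 12 at 0 in a *bmm* female library and 2 to 3 in a control female library. Of that sum, *Snmp1* made up 14.2, 10.9 and 16.02 CPM in *bmm* females and 7.39, 6.51 and 8.25 CPM in control females. Over all libraries 9 of these markers passed the filter, and 6 passed it in the female comparison. The median ratio of the 9 to the control female mean was 0.985, 1.07 and 1.31 in the *bmm* female libraries. The summed level of the odorant receptors was 9.39, 10.1 and 11.2 CPM in *bmm* females and 10.8, 9.78 and 11.1 CPM in control females. That of the gustatory receptors was 11.98, 11.98 and 12.3 CPM in *bmm* females and 7.75, 7.94 and 8.25 CPM in control females, and 1 of the 4 tested was called higher. The part of antennal tissue in the female Obp values was not tested.

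**Figure D4:**
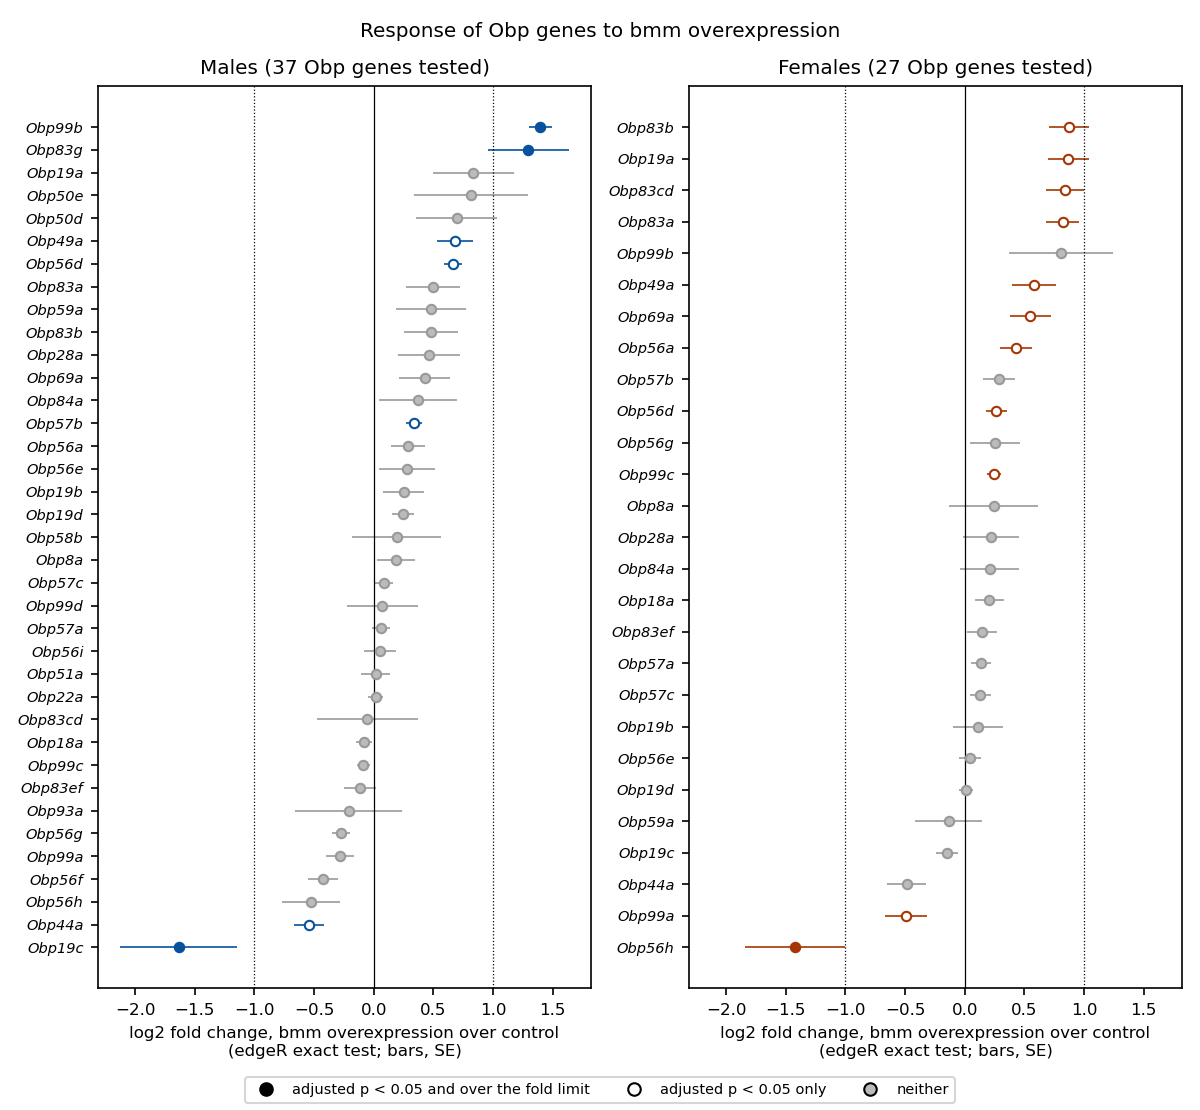
Log2 fold change of *bmm* over control flies with its standard error, for the 37 Obp genes tested in males and the 27 tested in females, ordered by size. Filled points passed both thresholds, open points the adjusted p alone, and grey points neither. The filled points are *Obp99b*, *Obp83g* and *Obp19c* in males and *Obp56h* in females.

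In males the fold changes of the 10 antennal members were positive, with a median of 0.47, and only *Obp56d* passed the adjusted p. Its ratios to the control male mean were 1.502, 1.72 and 1.57 in *bmm* male replicates 1, 2 and 3. *bmm* male replicate 1 was the highest of its group for 9 of 10 genes, a place it held for 32.6% of all 13988 genes. The median ratio to the control male mean was 1.91, 1.28 and 1.00 in *bmm* male replicates 1, 2 and 3. Without replicate 1 the median log2 fold change was 0.17, that of *Obp84a* was −0.02, and that of *Obp56d* was 0.71. The antenna and olfactory neuron markers summed to 131, 112 and 85.5 CPM in the same libraries, against 83.7, 78.9 and 83.2 CPM in control males. *bmm* male replicate 1 was highest for 6 of 9 of these markers. Of 18 odorant receptors it was highest for 7 (38.9%), near its share of all genes, and replicate 2 for 6. The median ratio of the odorant receptors to the control male mean was 1.16, 0.922 and 1.04 in *bmm* male replicates 1, 2 and 3. In females the median ratio of the 10 antennal members to the control female mean was 1.33, 1.38 and 1.33 in the *bmm* libraries and 1.10, 0.953 and 0.956 in the control libraries, so no single *bmm* female library carried the shift. For the 18 odorant receptors that passed the filter over all libraries it was 0.591, 0.720 and 1.01 in the *bmm* female libraries. In the control female libraries it was 1.10, 0.811 and 1.04. Only 3 odorant receptors passed the filter in the female comparison. In each female library 28 to 40 of all 60 had 0 counts, so most of these ratios rest on few counts.

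**Figure D5:**
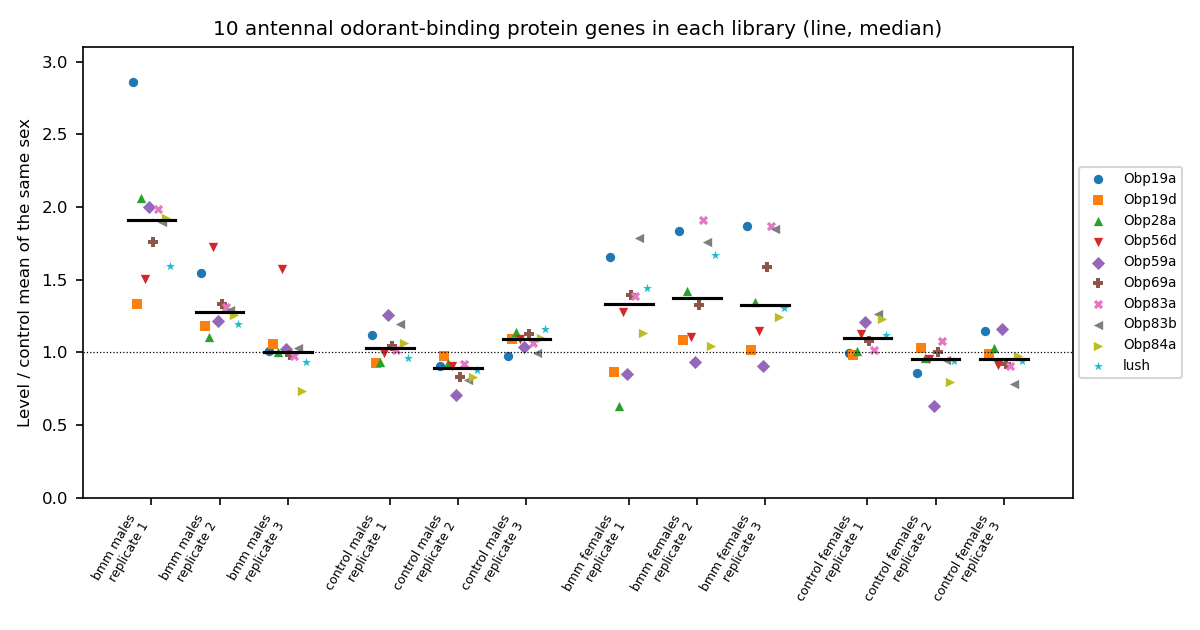
Level of 10 antennal odorant-binding protein genes in each library, divided by the control mean of the same sex, with the median of the 10 as a line. The medians are 1.91, 1.28 and 1.00 in the *bmm* male libraries and 1.33 to 1.38 in the *bmm* female libraries.

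Whether a response differed between the sexes was tested as the male log2 response minus the female one in the 12-library fit. Of 38 members, 0 were called higher and 0 lower, against 0.0929% and 1.12% of all genes, and 0 and 1 by adjusted p alone, against 0.286% and 2.62%. The 1 of 38 is 2.63%, close to the share of all genes. At an unadjusted p under 0.05, a cut whose share of all genes was not computed, the quasi-likelihood test gave 1 higher and 4 lower. DESeq2 called 0 in either direction. The 1 member was *Obp99c*, with a difference of −0.37 (SE 0.0890, adjusted p = 0.0474). It stood at 225, 244 and 231 CPM in *bmm* females, against 216, 180.4 and 205 CPM in control females, and at 730.1, 786 and 759 CPM in *bmm* males, against 758, 774 and 866 CPM in control males. *Obp99c* was thus higher in *bmm* females by 0.25 (SE 0.0580) and had −0.09 (SE 0.0573) in males. The other members with a call or an adjusted p under the threshold in 1 sex did not pass this test. For example, *Obp56d* had a difference of 0.36 (SE 0.137, adjusted p = 0.210), *Obp83cd* of −0.90 (SE 0.439, adjusted p = 0.351), *Obp19c* of −1.57 (SE 0.536, adjusted p = 0.156) and *Obp56h* of 0.86 (SE 0.513, adjusted p = 0.478).

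Of the members tested, *Obp57a* and *Obp83ef* were called in none of the 5 comparisons. The other 13 members never passed the filter: *Obp46a*, *Obp47a*, *Obp47b*, *Obp50a*, *Obp50b*, *Obp50c*, *Obp56b*, *Obp56c*, *Obp57d*, *Obp58c*, *Obp58d*, *Obp73a* and *Obp85a*. They had 0 to 38 counts in total over 12 libraries and at most 0.461 CPM in any library, the highest being *Obp50a* in a control male library. *Obp47a*, *Obp57d*, *Obp50b* and *Obp50c* had 0 counts in every library, which allows up to 3 counts per library. *Obp50b* and *Obp50c* share the same start and end in the annotation, so reads of one cannot be told from reads of the other by position, and their 0 is uncertain. None of these 13 genes was tested. *Obp50a* had 4, 4 and 3 counts in *bmm* males, 7, 4 and 13 in control males, 0, 0 and 3 in *bmm* females and 0 in each control female library.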

How the data were processed

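Whole-fly poly(A) RNA was sequenced in 12 libraries, 3 in each of 4 groups taken from the sample labels. The authors aligned trimmed reads to BDGP6.28 with HISAT2, dropped alignments of low mapping quality and counted reads per gene with featureCounts. Tool versions and the strand setting of the counting are not given in the sources used here. The deposited counts are whole numbers and not normalized, and in a second table each value equals the count times 1 factor per library. This deposited signal is called CPM here. It holds 38 of the 51 Obp genes, and the same factors gave the CPM of the others.

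Counts were analysed in R 4.3.3 with edgeR 4.0.16 after filterByExpr and TMM normalization. Within each sex, *bmm* and control flies were compared by the exact test, as in the study's methods, with standard errors from the quasi-likelihood fit. Sexes and the interaction were compared by the quasi-likelihood test over 12 libraries. P-values were adjusted over all genes tested. Calls needed an adjusted p under 0.05 and a log2 fold change beyond 1 in either direction. DESeq2 1.42.0 and limma 3.58.1 on log2(CPM + 1) and log2(CPM + 0.1) were alternatives, as were other scalings, no filter, a replicate block, 1 fit of all libraries and leaving out each library. The scripts were tested on simulated counts.

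The gene family (and so its members), gene lists and tests were chosen with earlier results of these data known. Each Obp gene called in any comparison is named with its values, as are the 5 highest per exon length in each sex. BDGP6.54 gave positions and exon lengths, matched on symbols. Replicates of a group differed by more than sampling noise (chi-square per degree of freedom 9.93 to 32.7). Nothing says that replicates came from separate cultures, so p-values measure the spread between these libraries, which may be technical. A floor of 3 counts and all counting intervals cover counting error only. Deviations of same-numbered female libraries from their group means had correlations of 0.169, 0.111 and 0.209 over 10488 genes. These were not set against differently numbered libraries, so a pairing was not shown. The replicate block, which treats same-numbered libraries as paired, was run as an alternative in every comparison. Tables hold no columns beyond these samples.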

Additional observations from a re-analysis of the deposited data

Results flagged for a closer look

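*Obp99c* is listed because its interaction of sex and *bmm* passed the adjusted p, although most fits that left out 1 library did not keep it and 1 of 38 members is close to the share of all genes. The interaction in edgeR's quasi-likelihood fit was −0.37 on the log2 scale (male minus female response, adjusted p = 0.0474). Its level was higher in 3 of 3 *bmm* female libraries than in any control female library, and the male ranges overlapped. The adjusted p was 0.0234 with DESeq2 and 0.0726 with the replicate block, and 11 of the 12 fits that left out 1 library gave an adjusted p over 0.05, of up to 0.282. The exception left out control male replicate 1 (adjusted p = 0.0357).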

How the results depend on the processing

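Of the *bmm* comparison calls, *Obp99b* in males was kept in the alternatives run, and *Obp83g* and *Obp19c* in males and *Obp56h* in females were each lost in some. In females the 1 gene called lower became 0 under the quasi-likelihood test, under limma-trend with either pseudocount and in 1 fit of all 12 libraries, and became 2 by adjusted p alone, where 9 were higher in place of 0. Leaving out 1 library gave 0 to 1 higher and 0 to 1 lower in females. The 1 higher was *Obp99b* (1.18) without *bmm* female replicate 2 and *Obp83b* (1.09) without control female replicate 1. In males the 2 called higher became 1 and the 1 called lower became 0 under the quasi-likelihood test, DESeq2 and limma-trend with either pseudocount. In 1 fit of all 12 libraries 1 was higher. By adjusted p alone 5 were higher and 2 lower. Leaving out 1 library gave 1 to 2 higher and 0 to 1 lower in males. The cause was not tested.

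In the sex comparison the counts stayed within 1.5 times, except for 5 lower in *bmm* flies by adjusted p alone in place of 3. The counts called higher lay between 26 and 33 in *bmm* flies and between 25 and 33 in control flies, the lowest with a pseudocount of 1, which shrinks the change of low genes. Leaving out 1 library gave 31 to 32 higher and 3 lower in *bmm* flies, and 30 to 32 higher and 3 to 4 lower in control flies. For the interaction, 1 was called higher under limma-trend with a pseudocount of 1, 1 lower by adjusted p alone, and 0 to 1 lower when 1 library was left out, the 1 without control male replicate 3. In the sex comparison 9 genes lost a call in 1 or more alternatives, 5 of them only with a pseudocount of 1. No call reversed in direction. Among genes with an adjusted p over 0.05, the fitted sign changed in 1 or more of the quasi-likelihood, DESeq2, block and leave-one-out fits for 4 in females, 10 in males and 18 in the interaction. With coding length, 4 of the 5 highest genes in females were shared, with *Obp19d* in place of *Obp56e*, and 5 of 5 in males.

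The replicate block kept the female count of 1 lower, with 8 higher and 2 lower by adjusted p alone. In males and between the sexes the correlations of same-numbered libraries were −0.0754 to 0.0722. There the block left 1 higher and 0 lower in males, and *Obp50e* lost its call in control flies. The counts at adjusted p alone under these settings, the antennal medians and the *Obp99c* fits were chosen after seeing the data.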
